A study of Mus musculus with 4 samples.

Results

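The genes described here are those of the core TGF-β pathway that microglia use: Tgfb1, Nrros and Ltbp1 on the ligand side, the receptors Tgfbr1 and Tgfbr2, the signal carriers Smad2, Smad3 and Smad4, and the inhibitors Smad7 and Skil. They were chosen by name, with earlier results of these data known, and make up 10 of the 54532 genes with an Ensembl identifier in both count tables. All 10 passed the filter of at least 10 counts summed over the libraries and are among the 13811 protein-coding genes tested. RNA was sequenced from primary microglia of CD1 mice that had received EGCG (epigallocatechin gallate, a catechin of green tea) at 1 µM or Vehicle (DMSO) 24 h earlier, with 2 libraries in each group. The cells came from mixed glial cultures of the cortex of male pups, from which the astrocyte layer had been taken off with trypsin.

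Cells of both groups were kept without serum in a medium to which TGFβ2, IL-34, GM-CSF and cholesterol had been added, so TGF-β ligand was supplied from outside in every library. The labels call the libraries of each group biological replicates 1 and 2, and each deposited table holds the Vehicle and the EGCG library of the same number. With 2 libraries a side, an exact permutation test could not go below p = 0.333, and the p-values below come from models fitted across all genes. With treatment as the only term, they set the difference against a spread between these samples that includes the gap between replicates. With the replicate as a block, that gap is taken out.

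TGF-β is made as a latent complex, in which the mature dimer stays wrapped in its own propeptide and is tethered to a milieu protein until it is released. The released dimer binds the type II receptor, which recruits and phosphorylates the type I receptor, and that in turn phosphorylates the receptor SMADs, which enter the nucleus with the common SMAD. In microglia this pathway is known to hold up the adult, homeostatic programme of genes.

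Total counts on genes were 33752397 and 34259608 for Vehicle and EGCG of replicate 1, and 36265508 and 54909854 for replicate 2. All 13 microglia and macrophage markers had counts in every library, with a summed level between 8498 and 11274 counts per 1000000 (CPM, scaled by the trimmed mean of M-values). Marker CPM in this paragraph were scaled over all genes. Later CPM were scaled over the genes tested, so values of the same gene can differ. Stromal markers set EGCG replicate 1 apart. Of 12 such genes 9 had fewer than 10 counts there, against 0 in its Vehicle partner and 3 and 2 in Vehicle and EGCG of replicate 2. Their summed level was 247 CPM there, 699 CPM in its partner, and 331 and 348 CPM in replicate 2. Nearly all of the sum in EGCG replicate 1 was Postn, at 241 CPM there and 246 CPM in its partner. Col1a1, a collagen of fibroblasts, had 3962 counts (117 CPM) under Vehicle but 4 (0.119 CPM) under EGCG in the first replicate. In the second it had 1344 and 2040 counts (36.3 and 37.3 CPM). The proteoglycan gene Dcn had 788, 2, 493 and 589 counts in the same order (23.4, 0.0593, 13.3 and 10.8 CPM). For the fibroblast receptor Pdgfra these were 122, 141, 43 and 95 counts (3.62, 4.18, 1.16 and 1.74 CPM). In the other marker lists the summed level ranged from 14.2 to 22.3 CPM for astrocytes, 150 to 180 CPM for the oligodendrocyte lineage, 72.5 to 178 CPM for endothelium, 1.27 to 18.7 CPM for neurons and 861 to 1012 CPM for border macrophages. Most of the endothelial sum was Flt1 alone, at 52.8 to 170 CPM. In replicate 1 most of the neuron sum was Snap25, at 16.8 and 15.5 CPM. These sums therefore do not stand for the other markers of their lists. Of 8 astrocyte markers tested, 4 were over 2-fold lower in EGCG of replicate 1 and 0 in replicate 2. All genes tested gave 5.45% and 1.48%. For 6 neuron markers these were 3 and 1, and for 5 endothelial markers 2 and 1. Gja1 had 160 counts in Vehicle and 1 in EGCG of replicate 1, then 66 and 107, while Aldh1l1 had 339 and 383, then 330 and 506. Aqp4 was at 0 in EGCG replicate 1, Sox10 in Vehicle replicate 1, Syt1 in both Vehicle libraries, Cd163 in EGCG replicate 1 and Vehicle replicate 2, and Cldn5 in all 4.

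Levels of different genes were compared as transcripts per 1000000 (TPM), which divide the counts by gene length. Tgfb1, the TGF-β ligand gene of microglia, stood highest at 185 ± 34.6 TPM (SD over the 4 libraries). Tgfbr1, the type I receptor, followed at 142 ± 35.4 TPM and Tgfbr2, the type II receptor, at 106 ± 62.1 TPM. Nrros, the milieu molecule that tethers latent TGF-β1 on microglia, had 100.5 ± 36.1 TPM. The ranges of neighbours among these 4 genes overlapped, so their order was not separated by the spread between libraries, whereas the lowest Nrros library (63.8 TPM) lay above the highest library of the next gene, Smad4 (52.2 TPM). Tgfbr2, at 51.0 TPM in Vehicle of replicate 1, overlapped Smad4.

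Next in the order of means came the common SMAD gene Smad4 at 46.5 ± 4.76 TPM, the repressor gene Skil at 42.5 ± 8.15 TPM and the receptor SMAD gene Smad2 at 36.4 ± 3.97 TPM. Their ranges overlapped from neighbour to neighbour. Smad3, the other receptor SMAD of this branch, was lower at 12.8 ± 8.64 TPM and did not overlap Smad2. The feedback inhibitor gene Smad7 had 7.89 ± 0.947 TPM, within the range of Smad3. Ltbp1, the matrix protein that tethers latent TGF-β in stromal tissue, was far below the rest, between 0.0101 and 0.0779 TPM. In CPM, a scale that favours long genes, the mean levels of Tgfb1, Tgfbr1 and Tgfbr2 lay at percentiles 96.8, 96.9 and 96.3 of all genes tested, and that of Ltbp1 at percentile 7.36.

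**Figure D1:**
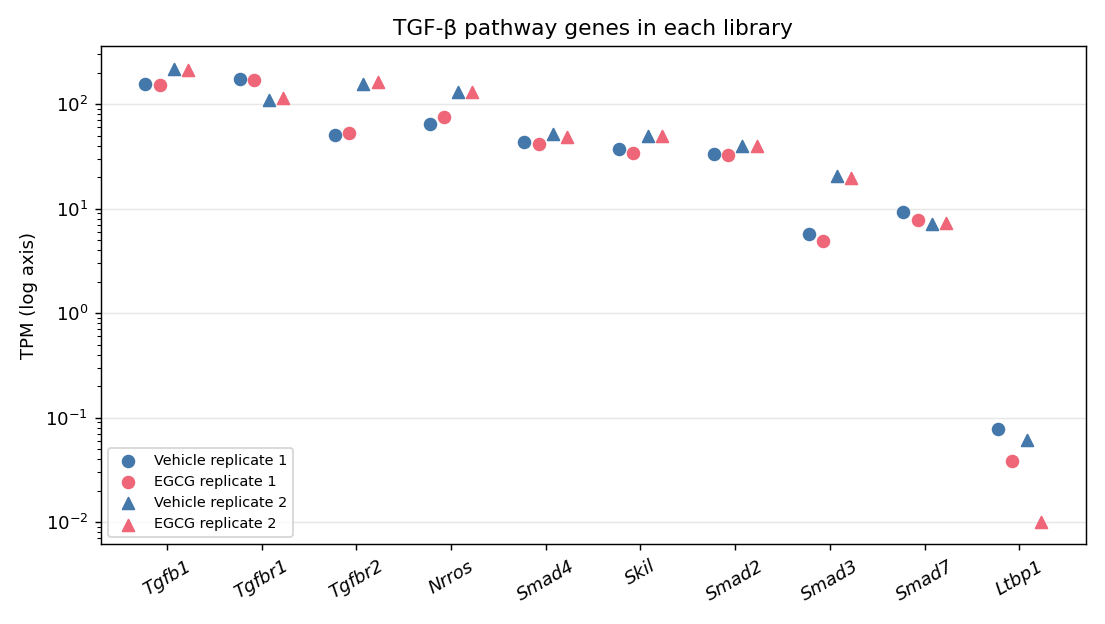
Level of each TGF-β gene in TPM (log axis) in the 2 Vehicle and 2 EGCG libraries, 1 point per library, with genes ordered by their mean. Tgfb1, Tgfbr1, Tgfbr2 and Nrros lie above 50 TPM in every library, Ltbp1 lies below 0.1 TPM, and the points of Tgfbr2 and Smad3 fall into 2 pairs by replicate rather than by treatment.

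The first comparison asked whether EGCG moved the pathway at the RNA level. None of the 10 genes passed an unadjusted p of 0.05 in edgeR's quasi-likelihood test, either with treatment as the only term or with the replicate as a block. Over all genes tested, 0.029% were called higher and 0.0869% lower by treatment alone, and 2.12% higher and 1.09% lower with the block. At an adjusted p under 0.1 the share called was 0% by treatment alone and 0.00724% with the block, again with 0 of the 10. Both EGCG libraries lay below both Vehicle libraries in 1 of the 10 genes, against 5.51% of all genes tested. The ranges of the other 9 overlapped, and the share of all genes with overlapping ranges was not computed. In 8 of 10 genes EGCG lay within 0.25 log2 of Vehicle in both replicates, against 65.1% of all genes tested.

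Tgfb1 (ENSMUSG00000002603, GRCm38 chr7:25687002-25705077, plus strand) had 295 CPM in Vehicle and 300.3 CPM in EGCG in replicate 1, and 374 and 365 CPM in replicate 2. Vehicle held both the lowest and the highest value. EGCG minus Vehicle in edgeR was -0.01 log2 with a 95% interval from -0.59 to 0.58, which narrowed to -0.13 to 0.13 with the replicate block.

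Nrros (ENSMUSG00000052384, chr16:32142785-32165594, minus strand) had 99.6 CPM in Vehicle and 121 CPM in EGCG in replicate 1, and 185 and 189 CPM in replicate 2. EGCG was the higher library in each replicate, while the groups overlapped. The edgeR difference of 0.13 log2 (SE 0.41, adjusted p = 1.00) became 0.16 (SE 0.074, adjusted p = 0.995) with the replicate block, and came mainly from replicate 1, where it was 0.29 log2 against 0.03 in replicate 2.

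Ltbp1 (ENSMUSG00000001870, chr17:75005568-75392512, plus strand) had only 25 counts over the 4 libraries. Vehicle and EGCG had 10 and 5 of them in replicate 1, and 8 and 2 in replicate 2. It was the single gene of the 10 with both EGCG libraries below both Vehicle libraries, a pattern seen in 5.51% of all genes tested. The ratio of EGCG to Vehicle, per count on genes, was 0.493 in replicate 1 (95% exact conditional binomial interval 0.132 to 1.58) and 0.165 in replicate 2 (0.0171 to 0.827). These intervals cover counting error only. By the scaled log2 difference Ltbp1 was 1 of 10 past a 2-fold fall in replicate 2, where 1.48% of all genes were, and 0 of 10 were in replicate 1, where 5.45% of all genes were. The value of EGCG replicate 2 is under the floor of 3 counts, and the edgeR difference of -1.49 log2 (SE 1.00, adjusted p = 1.00) rests on these few reads. Of the 12 stromal markers, 10 were over 2-fold lower in EGCG of replicate 1 and 0 in replicate 2, and their part in the Ltbp1 counts was not tested.

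Both receptor genes were close between treatments. Tgfbr1 (ENSMUSG00000007613, chr4:47353222-47414931, plus strand) had 425 CPM in Vehicle and 432 CPM in EGCG in replicate 1, and 241 and 255 CPM in replicate 2. Tgfbr2 (ENSMUSG00000032440, chr9:116084293-116175360, minus strand) had 156 and 169 CPM in replicate 1, and 436 and 454 CPM in replicate 2. In each receptor the libraries stood together by replicate, and treatments overlapped. With the block, EGCG minus Vehicle was 0.05 log2 for Tgfbr1 (edgeR interval -0.08 to 0.18) and 0.08 log2 for Tgfbr2 (-0.04 to 0.21). With treatment as the only term the interval ran from -1.13 to 1.22 for Tgfbr1 and from -1.98 to 2.12 for Tgfbr2. Those of Smad3 and Nrros ran from -2.52 to 2.39 and from -1.02 to 1.27. A 2-fold change in either direction was inside each of these intervals.

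The receptor and common SMADs carry the signal to the nucleus. Smad2 (ENSMUSG00000024563, chr18:76241580-76305731, plus strand) had 44.5 CPM in both libraries of replicate 1 and 48.1 and 48.3 CPM in Vehicle and EGCG of replicate 2. It was the steadiest of the 10 between treatments, with differences of 0.0003 and 0.005 log2 in the replicates. The edgeR interval was -0.14 to 0.15 with the block and -0.36 to 0.37 with treatment as the only term. Smad4 (ENSMUSG00000024515, chr18:73639009-73703780, minus strand) had 60.3 CPM in Vehicle and 60.1 CPM in EGCG in replicate 1, and 65.6 and 62.0 CPM in replicate 2. The blocked difference was -0.04 log2 (-0.20 to 0.11), and the interval with treatment as the only term was -0.39 to 0.30. Smad3 (ENSMUSG00000032402, chr9:63646767-63757994, minus strand) had 11.8 and 10.5 CPM in replicate 1 and 38.8 and 37.8 CPM in replicate 2. EGCG was slightly the lower library in both replicates, by 0.16 and 0.04 log2, and the blocked difference of -0.09 log2 (SE 0.071, adjusted p = 0.995 in edgeR) did not pass the test.

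Of the inhibitors, Smad7 is an immediate SMAD target that blocks the type I receptor, and Skil encodes SnoN, a repressor of SMAD-driven transcription. Smad7 (ENSMUSG00000025880, chr18:75367529-75395935, plus strand) had 15.6 CPM in Vehicle and 13.7 CPM in EGCG in replicate 1, and 11.0 and 11.3 CPM in replicate 2. Skil (ENSMUSG00000027660, chr3:31095058-31122577, plus strand) had 134 and 128 CPM in replicate 1, and 162 and 165 CPM in replicate 2. In both genes EGCG was lower in replicate 1 and higher in replicate 2, and the groups overlapped. Blocked differences were -0.07 log2 for Smad7 (edgeR interval -0.33 to 0.20) and -0.02 log2 for Skil (-0.15 to 0.11). With treatment as the only term the intervals were -0.82 to 0.65 for Smad7 and -0.59 to 0.55 for Skil. In bulk RNA a lower share of cells that express a gene and less RNA per cell cannot be told apart.

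**Figure D2:**
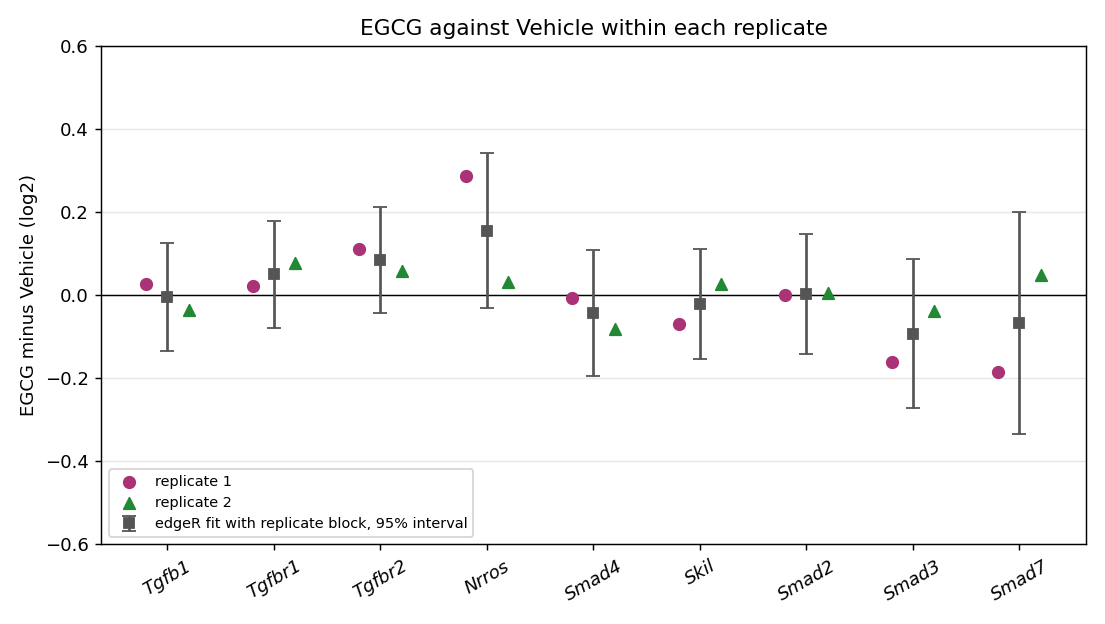
EGCG minus Vehicle for 9 TGF-β genes, in log2, with the difference within replicate 1 (circles) and replicate 2 (triangles), and the edgeR estimate with the replicate block and its 95% interval (squares and bars); Ltbp1, with 25 counts in all, is left out. Each of the 9 intervals spans 0, and Nrros in replicate 1 (0.29) is the largest single difference. The intervals with treatment as the only term are wider and are not drawn.

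The replicates differed from each other far more than the treatments did. The median size of the gap between replicates over the 10 genes was 0.45 log2 in Vehicle and 0.50 log2 in EGCG (0.38 and 0.35 over all genes tested). The median size of the treatment difference was 0.09 log2 in replicate 1 and 0.04 log2 in replicate 2 (0.12 and 0.10 over all genes). Each replicate has a table of its own, so a difference between replicates and one between tables cannot be told apart, and the gaps are given as values with no test.

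Smad3 and Tgfbr2 were over 2-fold higher in replicate 2 than in replicate 1 in both groups. These were 2 of the 10 genes, against 4.31% of all genes tested, and 0 of the 10 were over 2-fold lower, against 7.73%. Smad3 was higher by 1.71 log2 in Vehicle and 1.84 log2 in EGCG. Tgfbr2 was higher by 1.48 log2 in Vehicle and 1.43 log2 in EGCG. Nrros had a gap of the same sign, 0.90 log2 in Vehicle and 0.64 log2 in EGCG.

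Tgfbr1 went the opposite way to Tgfbr2, with replicate 2 below replicate 1 by 0.82 log2 in Vehicle and 0.76 log2 in EGCG. The balance of the receptors therefore turned over. The ratio of Tgfbr2 to Tgfbr1 in TPM was 0.293 in Vehicle and 0.311 in EGCG of replicate 1, and 1.44 and 1.42 in replicate 2. Smad3 relative to Smad2 was 0.170 and 0.152 in replicate 1, and 0.516 and 0.501 in replicate 2. In both ratios the treatments of a replicate lay side by side and the replicates did not overlap.

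Smad2 and Smad4 were nearly level across replicates, with gaps of 0.11 and 0.12 log2 in Vehicle. Tgfb1 was higher in replicate 2 by 0.34 log2 in Vehicle and 0.28 log2 in EGCG, and Nrros per Tgfb1 in TPM was 0.408 and 0.488 in replicate 1 against 0.599 and 0.627 in replicate 2. Smad7 was lower in replicate 2 by 0.51 log2 in Vehicle and 0.27 log2 in EGCG, and Skil was higher by 0.27 and 0.37 log2.

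**Figure D3:**
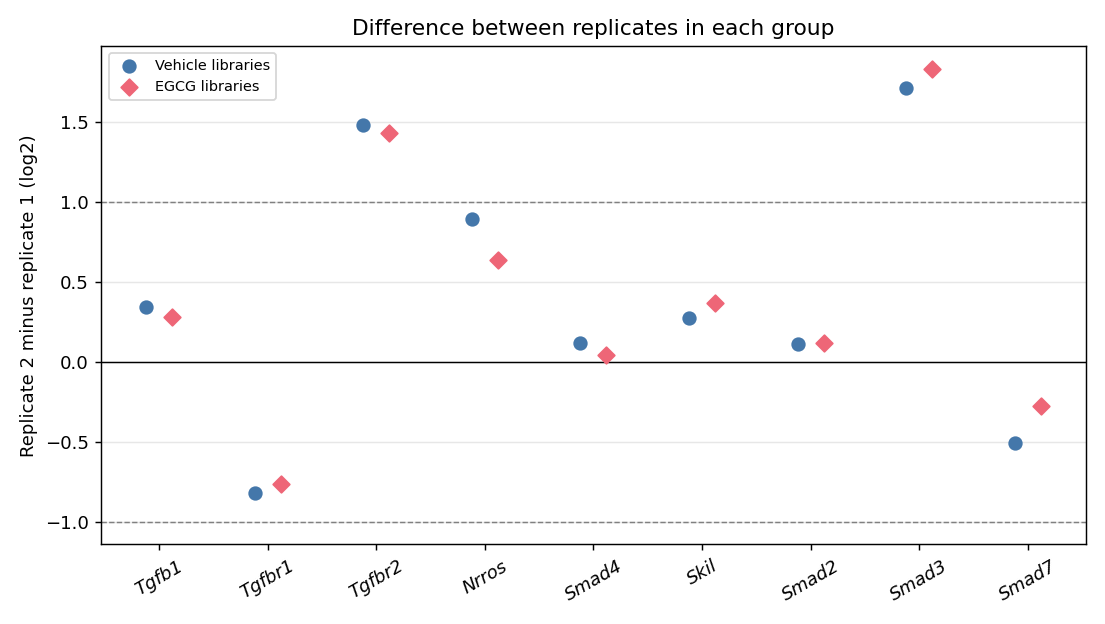
Replicate 2 minus replicate 1 for 9 TGF-β genes in log2, in Vehicle and in EGCG, 1 point per group, with dashed lines at a 2-fold difference. Smad3 and Tgfbr2 lie beyond 1 log2 in both groups, Tgfbr1 lies near -0.8 in both, and Ltbp1 is left out because of its 25 counts.

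Promoters of 3 genes are shown because Tgfbr2 and Tgfbr1 went opposite ways between replicates while Smad3 went with Tgfbr2. The sequences are the 250 bases before the gene start in RefSeq (GRCm38.p6), written 5′ to 3′ along the gene. Capitals mark each CAGAC, the SMAD binding element, and each GGGCGG, the GC box, or their reverse complements, which share no bases. They lie at chr9:116175364-116175613 on the minus strand (Tgfbr2), chr9:63757995-63758244 on the minus strand (Smad3) and chr4:47352972-47353221 on the plus strand (Tgfbr1).
Tgfbr2: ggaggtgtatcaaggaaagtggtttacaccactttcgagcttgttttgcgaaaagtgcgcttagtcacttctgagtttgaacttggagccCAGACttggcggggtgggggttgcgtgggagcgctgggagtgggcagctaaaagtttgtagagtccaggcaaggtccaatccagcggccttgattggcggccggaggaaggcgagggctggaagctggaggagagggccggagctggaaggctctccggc
Smad3: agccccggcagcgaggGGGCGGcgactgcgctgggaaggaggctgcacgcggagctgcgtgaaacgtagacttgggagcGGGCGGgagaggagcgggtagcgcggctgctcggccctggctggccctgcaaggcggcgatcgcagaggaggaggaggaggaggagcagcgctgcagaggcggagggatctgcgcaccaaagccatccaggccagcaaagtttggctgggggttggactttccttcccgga
Tgfbr1: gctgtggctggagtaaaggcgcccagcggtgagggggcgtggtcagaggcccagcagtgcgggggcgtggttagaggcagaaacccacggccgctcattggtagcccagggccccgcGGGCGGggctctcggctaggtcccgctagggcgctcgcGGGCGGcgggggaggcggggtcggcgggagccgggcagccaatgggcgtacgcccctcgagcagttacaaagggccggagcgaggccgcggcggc
The Tgfbr2 window held 1 SMAD element, 160 bases before the start, and 0 GC boxes, at 58.4% G and C. The Smad3 window held 0 SMAD elements and 2 GC boxes, at 69.2% G and C, and the Tgfbr1 window likewise held 0 and 2, at 74.8%. Of 32851 mouse promoter windows of this length, 42.2% held CAGAC and 32.7% held GGGCGG on either strand. Either motif is thus common, and its presence or absence in these windows is a description of letters.

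The wider pathway was read through lists of other genes. Among 11 other ligand genes tested, 0 passed an unadjusted p of 0.05 in edgeR with or without the block. Inhba, the activin A subunit, was the most abundant, at 145 CPM in Vehicle and 111 CPM in EGCG of replicate 1 against 9.17 and 12.2 CPM in replicate 2. Inhbb had 3.72, 2.40, 1.20 and 1.65 CPM in Vehicle 1, EGCG 1, Vehicle 2 and EGCG 2, and Bmp2 had 0.274, 0.905, 3.36 and 3.44 CPM. Inhba was thus over 2-fold lower and Bmp2 over 2-fold higher in replicate 2 in both groups. The other TGF-β ligands were scarce, with 13 to 46 counts of Tgfb2 and 9 to 26 counts of Tgfb3 per library, against at least 9623 counts of Tgfb1.

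Among 11 other receptors of the superfamily 0 passed the test either way. Bmpr2, the type II BMP receptor, had between 100.3 and 110 CPM, Bmpr1a, a type I BMP receptor, between 62.1 and 69.6 CPM, and Acvrl1, a type I receptor best known from endothelium, between 60.6 and 80.0 CPM. None of the 11 differed over 2-fold between replicates in both groups, where 4.31% of all genes tested were higher in replicate 2 and 7.73% lower. The same held for 25 of 26 SMAD partners and regulators. Of these 26 genes 0 passed the test, and 23 lay within 0.25 log2 of Vehicle in both replicates, against 65.1% of all genes tested. The exception was Runx3, a SMAD partner in lymphocytes and myeloid cells, at 13.9 and 12.5 CPM in replicate 1 and 1.86 and 2.23 CPM in replicate 2. The corepressor Ncor1, the SMAD partner Runx1 and the coactivator Ep300 were the most abundant, and their EGCG differences lay between -0.12 and 0.02 log2 in either replicate.

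Of 17 genes of latency and activation, 0 passed with treatment alone. With the block 1 was higher and 2 were lower at an unadjusted edgeR p under 0.05, against 2.12% and 1.09% of all genes tested. The integrin genes Itgb1, Itgb5 and Itgav, subunits of receptors that can release TGF-β, were the most abundant. Their EGCG differences were at most 0.03 log2 in size for Itgb1 and 0.01 for Itgb5, and -0.16 in replicate 1 for Itgav. Itgb3 was higher under EGCG by 0.07 and 0.43 log2 (blocked difference 0.25, SE 0.097), and Furin, the protease that cuts the propeptide, was lower by 0.24 and 0.08 log2 (-0.16, SE 0.062). Ltbp2, a fibrillin-binding matrix protein, had 8.66, 0.718, 6.17 and 2.94 CPM in Vehicle 1, EGCG 1, Vehicle 2 and EGCG 2. Its blocked difference was -2.16 log2 (SE 0.59). These were the 3 that passed unadjusted, and the adjusted edgeR p was 0.995 for each of the 3 genes. The part of the 10 stromal markers that were lower in EGCG of replicate 1 in these values was not tested.

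The response list gathers genes that TGF-β or the related BMPs are known to induce. Of its 30 genes, 0 passed with treatment alone, and 2 were higher and 2 lower with the block, against 2.12% and 1.09% of all genes tested. In replicate 1, 12 of 30 were over 2-fold lower in EGCG, against 5.45% of all genes tested, and in replicate 2 none were, against 1.48%. Ctgf, a matricellular growth factor gene, had 21.1 CPM in Vehicle and 0.437 CPM in EGCG of replicate 1, and 7.83 and 11.2 CPM in replicate 2. The smooth muscle genes Acta2 and Tagln went from 10.8 and 20.8 CPM under Vehicle to 0.593 and 0.343 CPM under EGCG in replicate 1. In replicate 2 they went from 2.43 and 3.76 CPM to 5.78 and 5.73 CPM. Fibroblasts express these genes too, and Col1a1 and Col1a2 stand in both this list and the stromal one. Over the 12 stromal markers 10 were over 2-fold lower in EGCG of replicate 1 and 0 in replicate 2, with medians of -5.12 and -0.01 log2. Of 8 astrocyte markers these were 4 and 0. The part of stromal cells or astrocytes in the response genes was not tested.

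The 4 response genes that passed with the block differed in how far the replicates stood together. Tgfbi, a secreted matrix protein gene, had 595 CPM in Vehicle and 473 CPM in EGCG of replicate 1, and 377 and 330 CPM in replicate 2. EGCG was the lower library both times, by 0.33 and 0.19 log2 (blocked edgeR difference -0.26, SE 0.060). Tsc22d1, a leucine zipper factor gene, had 30.7 and 35.1 CPM, then 34.2 and 38.7 CPM, higher by 0.19 and 0.18 log2. Id2, an inhibitor of basic helix-loop-helix factors, was higher by 0.12 log2 in each replicate. Timp1, a metalloproteinase inhibitor that fibroblasts also express, had 32.8 and 1.93 CPM in replicate 1 and 16.0 and 10.7 CPM in replicate 2. Its blocked difference was -2.10 log2 (SE 0.81). The adjusted p was 0.995 for all 4. Fn1, the most abundant gene of the list, had 2410 and 1711 CPM in replicate 1 and 543 and 605 CPM in replicate 2. In both groups 6 of the 30 genes were over 2-fold lower in replicate 2, against 7.73% of all genes tested. These were Fn1, Pmepa1, a SMAD target that dampens the pathway, Id1, Bhlhe40, Sphk1 and Dusp4. Fos was the 1 gene over 2-fold higher, against 4.31%.

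**Figure D4:**
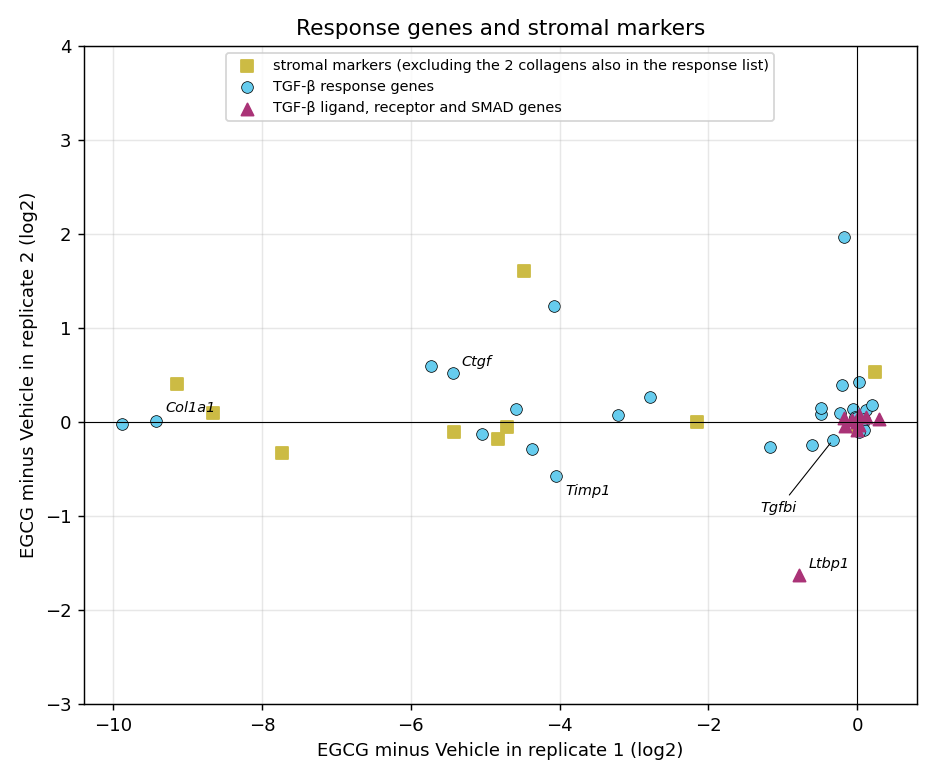
EGCG minus Vehicle in replicate 1 (x axis) against replicate 2 (y axis), both in log2, for the 30 response genes, the stromal markers not also among them, and the 10 TGF-β genes. Ctgf (-5.44 and 0.52) and Timp1 (-4.05 and -0.58) lie far to the left along with most stromal markers, Pdgfra (0.24 and 0.53) and Postn excepted, while the TGF-β genes other than Ltbp1 lie within 0.3 of 0 on both axes.

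Microglial genes that TGF-β is known to hold up were tested as a last list of 22. None passed with treatment alone, and 1 was higher and 1 lower with the block, against 2.12% and 1.09% of all genes tested. Sall1, a microglial identity factor, had 12.7 and 10.9 CPM in Vehicle and EGCG of replicate 1 and 45.1 and 40.0 CPM in replicate 2, lower in EGCG by 0.22 and 0.17 log2 (blocked edgeR difference -0.19, SE 0.064). Trem2, a lipid-sensing receptor gene, had 688 and 776 CPM, then 430 and 467 CPM, higher by 0.17 and 0.12 log2 (0.15, SE 0.056). The adjusted p was 0.995 for both. Among the most abundant genes of the list, EGCG differences were 0.23 and -0.18 log2 for C1qa and 0.08 and 0.02 for Csf1r.

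Between replicates this list went both ways. Of the 22 genes, 5 were over 2-fold higher in replicate 2 in both groups, against 4.31% of all genes tested, Sall1, Fcrls, Gpr34 and Cx3cr1 among them, the direction of Tgfbr2 and Smad3. Another 3 were over 2-fold lower, against 7.73% of all genes, namely Tmem119, Olfml3 and Adgrg1. Fcrls, a microglial Fc receptor-like gene, had 94.4 and 99.7 CPM in replicate 1 and 732 and 629 CPM in replicate 2. Olfml3, a secreted protein gene of microglia, had 147 and 134 CPM, then 23.1 and 22.4 CPM, and Tmem119, a microglial surface marker, had 35.1 and 26.7 CPM, then 11.2 and 11.8 CPM. With 2 replicates no relation between the receptor levels and these genes could be tested.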

How the data were processed

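Per the labels, poly-A directional libraries were sequenced from primary microglia, and reads were aligned by the authors with HISAT2 to GRCm38.p6. The counting program, annotation and strand setting are not given in the sources used here. The authors deposited their gene counts, not normalized, as 2 tables, each with the Vehicle and EGCG library of 1 replicate, and a gene length column, which served for TPM. Columns were matched to samples through the study's metadata. Assembled loci without an Ensembl identifier (697 and 329) were left out. Gene positions are those of the files, and 98% of genes had the same position in GENCODE M21.

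A sum of 10 or more counts was required of each protein-coding gene, and these were tested with edgeR 4.0.16 (glmQLFit and glmQLFTest, TMM, two-sided, Benjamini-Hochberg over 13811 genes) in R 4.3.3. Differences within a replicate and gaps between replicates are not from these fits but from log2 CPM with a prior count of 2. Treatment was the only term of the main fit. The study's methods name the difference between EGCG and Vehicle and do not say whether a replicate term was used. Because each table holds both libraries of a replicate, a fit with the replicate as a block is also given. For the TGF-β genes it changed no call and gave narrower intervals. The gap between the Vehicle replicates correlated with that between the EGCG replicates (r = 0.64 across 13811 genes, which are not independent), whereas the treatment differences of the replicates did not (r = -0.05). DESeq2 1.42.0 and other filters, scalings and left-out libraries were alternatives, and the edgeR code was tested on simulated data. A count of 3 was the floor, at 0.0546 to 0.0889 CPM.

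The 10 genes and all lists were chosen with earlier results of these data known. Genes named from a list are its 3 most abundant and those with p under 0.05 in either edgeR fit, and some genes of the lists are not reported here. Other genes named for a gap between replicates, a fall in replicate 1, a large part of a marker sum or few counts were chosen after their values were seen. Genes named with fewer than 10 counts in all were not tested. Promoter letters are from a table of RefSeq promoters, in which 6 of the 10 genes were matched.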

Additional observations from a re-analysis of the deposited data

How the results depend on the processing

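None of the 10 TGF-β genes passed an unadjusted p of 0.05 in any alternative, with edgeR or DESeq2. The lowest edgeR p was 0.0862, for Nrros with the block. For Ltbp1 the lowest was 0.0920, with the newer edgeR dispersion and the block, against 0.138 with the block and the default dispersion. Of all genes, 16 passed with treatment alone, 444 with the replicate block, 153 with DESeq2 and the block, 38 with the newer edgeR dispersion and 524 with that and the block (this pair chosen after seeing the data), 3 with at least 10 counts in every library and 35 with all gene types. Leaving out 1 library gave 8 to 131. At an adjusted p under 0.1 the count was 0, then 1 with the block, 1 with DESeq2, 7 with DESeq2 and the block and 2 with the newer dispersion and the block. The latency list moved from 0 to 3 with the block, 1 with DESeq2, 2 with DESeq2 and the block, 1 without a filter, 3 with the newer dispersion and the block, and 0 to 3 without 1 library. The response list moved from 0 to 4, 1, 2 and 3 under the block, DESeq2, DESeq2 and the block, and the newer dispersion and the block, and from 0 to 11 without 1 library, the 11 being without EGCG replicate 2. The microglial list moved from 0 to 2, 4 and 2 under the block, DESeq2 and the block, and the newer dispersion and the block, and 0 to 1 without 1 library. Receptors gave 0 to 1. The difference of Smad2 changed sign at sizes near 0, to -0.0040 with DESeq2, -0.0044 with DESeq2 and the block, -0.016 with upper-quartile scaling, -0.028 with total counts and -0.0075 with at least 10 counts in every library. Ltbp1 had no value under that filter. Without 1 library, log2 differences ranged from -0.18 to 0.16 (Tgfb1), -0.39 to 0.51 (Tgfbr1), -0.84 to 0.99 (Tgfbr2), -0.086 to 0.058 (Smad2), -1.29 to 1.03 (Smad3), -0.10 to 0.0012 (Smad4), -0.33 to 0.19 (Smad7), -0.26 to 0.63 (Nrros), -0.24 to 0.15 (Skil) and -2.75 to -0.76 (Ltbp1). The causes were not tested. The signs of the gaps between replicates of all 10 genes were the same under 3 scalings, although total counts moved the median EGCG gap of all genes from 0.01 to 0.11. With 2 libraries a group, only differences well beyond the gaps between replicates could pass without the block.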
